A study of Mus musculus with 26 samples.

Results

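Dcdc2a, Mapk4, Sema3b, Zmat4, Hyal1, Agrn, Ankrd13a and Oxct1 are 8 of the 24409 genes of the expression table of mouse embryonic stem (ES) cells. They were chosen because the study placed them next to ZFP57 peaks that lost trimethylation of lysine 9 of histone H3 (H3K9me3), did not mark them as imprinted and showed them as higher without ZFP57. They were thus selected by their FPKM in the WT and KO libraries described here. Their differences between WT and knockout are therefore given as a description, with no test and no p-value.

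ZFP57 is a zinc finger protein with a KRAB domain that recognises the hexanucleotide TGCCGC when its CpG is methylated. It recruits the co-repressor KAP1 (TRIM28), whose partners include the enzyme SETDB1, which deposits H3K9me3. It is best known for keeping the DNA methylation of imprinting control regions after fertilization, and in ES cells it also occupies many sites outside imprinted domains.

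Expression was measured by RNA-seq in 3 WT and 2 ZFP57 KO libraries of male C57BL/6J ES cells. Morulae collected at embryonic day 2.5 were cultured for 2 days, the trophectoderm was removed, and lines were derived from the inner cell mass and grown with LIF and inhibitors of Erk and Gsk3 (2i) for at most 15 passages. The KO lines were zygotic mutants from embryos carrying a targeted disruption of the exons that encode the KRAB domain and the zinc fingers, so that maternal ZFP57 could be present before derivation. ZFP57 binding was mapped by ChIP-seq in the same genotypes, and the list held 1423 peaks that were called in at least 2 of the 3 WT libraries. A shorter list named for hybrid lines contained 743 of these intervals. Libraries for KAP1 and H3K9me3, and the hybrid KO lines, were not analysed here.

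The unit of expression was FPKM, in which fragments are counted relative to the length of the transcript and to the mapped fragments of the library. The step between low FPKM values corresponded to an estimated 50900000 to 58900000 fragments per library. Zfp57 itself was at 75.94, 72.34 and 70.55 FPKM in WT and at 19.00 and 21.62 FPKM in KO. It fell by 1.84 on the log2 scale (SE 0.06, limma adjusted p = 0.00023), and 27.8% of the WT level remained over the whole gene, so that the deleted exons were not seen separately. The 7 ES cell markers summed to 642 to 661 FPKM in WT and 724 to 783 FPKM in KO, and 4 of them were called higher. Markers of other cells the cultures could hold had lower sums. The 6 trophectoderm markers summed to 0.82 to 1.33 FPKM in WT and 2.99 to 3.36 FPKM in KO, with 1 of 4 tested, Eomes, called higher. The 6 primitive endoderm markers summed to 0.75 to 0.91 and 1.07 to 1.39 FPKM, with 1 of 4, Sox7, called higher. For mesoderm the sums were 1.59 to 1.85 and 1.95 to 2.83 FPKM, with 1 of 3 tested, T, called higher. For neural cells they were 12.5 to 15.1 and 9.51 to 14.7 FPKM, mostly from Tubb3, with 1 of 5 tested, Sox1, called higher and 1, Neurog1, called lower. For fibroblasts they were 0.63 to 0.70 and 0.53 to 0.94 FPKM, with none of 2 tested called and Dcn listed at 0 in all libraries. Their part in the values below was not tested. In bulk RNA, a larger share of a cell type and more RNA per cell cannot be told apart.

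All 8 genes had a mean of at least 0.1 FPKM and entered the fit over 14612 genes. In each of them both KO libraries lay above all 3 WT libraries, an order shared by 30.3% of the tested genes, with the opposite order in 33.1%. Since the order of the groups served to choose the genes, nothing is read from this count. Over all tested genes the fit called 18.8% higher and 22.3% lower in KO. The size of the difference varied widely. The log2 difference was at least 1 in 5 of the 8 genes, a size reached by 3.39% of the tested genes. This count was 5 with a pseudocount of 0.01 FPKM (4.56% of the tested genes) and 1 with a pseudocount of 1 FPKM (1.08%). Hyal1, at 1.00, was at 0.88 without the second KO library. The median of the 8 genes was 1.30 against -0.0127 over all tested genes. Since the genes were chosen for rising in these libraries, these sizes are a description too. The 4 genes under 1 FPKM in every WT library, Dcdc2a, Mapk4, Sema3b and Zmat4, had the 4 largest log2 differences with pseudocounts of 0.1 and 0.01 FPKM, but with 1 FPKM Sema3b (0.60) was below Hyal1 (0.84). The 3 genes above 10 FPKM, Agrn, Ankrd13a and Oxct1, had the 3 smallest and the largest gains in FPKM (5.77, 5.64 and 4.29). The genes came from 7 chromosomes, whose median log2 differences over all their tested genes ranged from -0.031 to 0.048. Chromosomes 11 and 6, which carry none of the 8 genes, stood apart with medians of -0.471 over 1226 tested genes and 0.17 over 679.

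**Figure D1:**
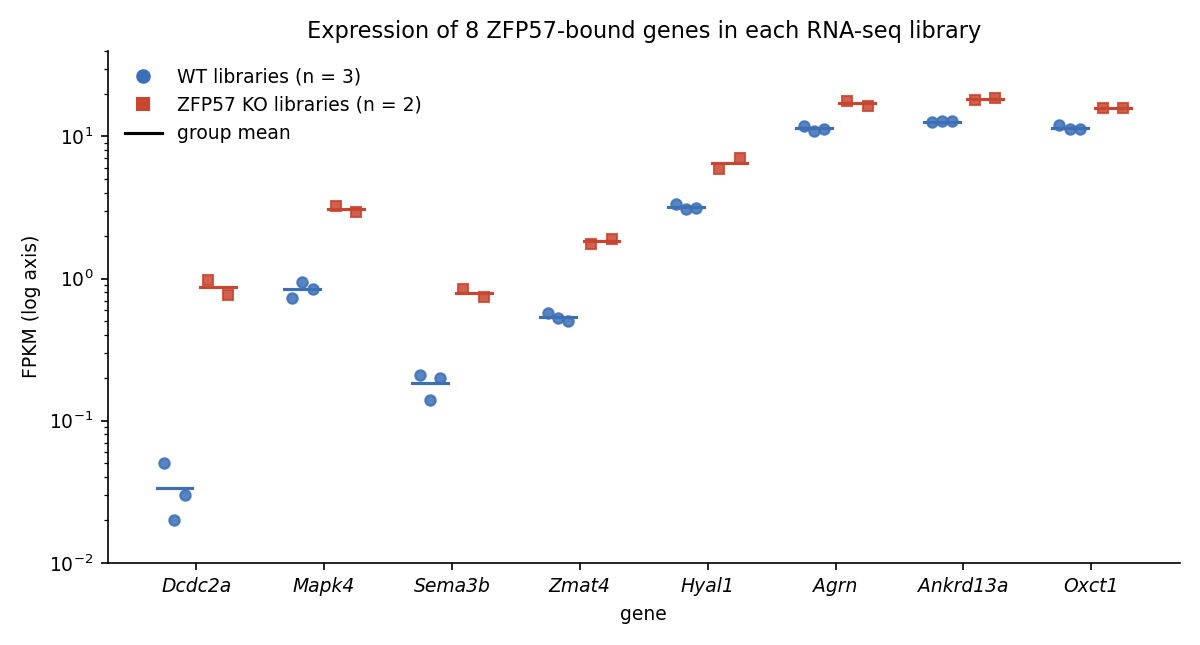
FPKM of the 8 genes on a logarithmic axis, with circles for the 3 WT libraries, squares for the 2 ZFP57 KO libraries and bars for the group means. Both KO values of each gene lie above its 3 WT values, with the widest gap on this axis at Dcdc2a, where the means were 0.0333 and 0.875 FPKM.

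Dcdc2a encodes a doublecortin domain protein, a family that binds microtubules. It was at 0.05, 0.02 and 0.03 FPKM in WT and at 0.98 and 0.77 FPKM in KO. It was the lowest of the 8 genes in WT and was near 1 FPKM in both KO libraries. At the estimated depth and a transcript of 6883 bp these values corresponded to about 19, 8 and 11 fragments in WT and 354 and 292 in KO, so that the WT level rested on few fragments. The means were 0.0333 ± 0.0153 (SD, n = 3) and 0.875 ± 0.148 FPKM (SD, n = 2), a ratio of 26.2. On the log2(FPKM + 0.1) scale the difference was 2.87 (SE 0.21), the 31st largest of the tested genes. The size depended on the pseudocount, with 4.40 at 0.01 FPKM and 0.86 at 1 FPKM. Among the 711 tested genes within 20 kb of a ZFP57 peak, 1 had a larger log2 difference than Dcdc2a.

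The ZFP57 peak of Dcdc2a, chr13:25050388-25050736 in GRCm38 (mm10), was the only intergenic peak of the set. It was 349 bp wide, lay 4537 bp upstream of the gene's annotated span and was also in the hybrid list. Soft-masked repeat sequence made up 88.0% of it. The central 300 bases are shown because their single TGCCGC sits within a tandem array: the unit GGCTGAGCACTTGCCG occurred 6 times in the peak, followed by T in 5 copies and by C, which completes the hexanucleotide, in 1. No other peak of the list held this unit. Capitals mark the hexanucleotide.
Dcdc2a peak, chr13:25050412-25050711, plus strand: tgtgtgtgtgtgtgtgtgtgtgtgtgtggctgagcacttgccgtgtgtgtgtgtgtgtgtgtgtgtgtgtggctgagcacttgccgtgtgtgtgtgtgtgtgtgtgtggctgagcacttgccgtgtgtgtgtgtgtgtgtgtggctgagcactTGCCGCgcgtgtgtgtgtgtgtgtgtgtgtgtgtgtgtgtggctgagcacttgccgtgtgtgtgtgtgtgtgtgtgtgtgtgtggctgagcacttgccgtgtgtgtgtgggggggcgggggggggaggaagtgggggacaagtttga

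Mapk4 encodes ERK4, an atypical MAP kinase. Its values were 0.73, 0.94 and 0.85 FPKM in WT and 3.23 and 2.93 FPKM in KO. The groups were separated by 1.99 FPKM, more than the whole spread within either group. The means were 0.84 ± 0.105 (SD, n = 3) and 3.08 ± 0.212 FPKM (SD, n = 2), a ratio of 3.67 and a log2 difference of 1.76 (SE 0.13), or 1.15 with a pseudocount of 1. The peak of Mapk4, chr18:73959145-73959719, was 575 bp wide and lay in the second intron of a transcript with 6 exons (NM_172632.2). It held 3 copies of TGCCGC, overlapped an element of the LTR retrotransposon family IAPEY2 and was absent from the hybrid list. A further peak, chr18:73894812-73895287, with 4 copies and an IAPEY LTR, lay 33199 bp downstream of the gene and thus outside the limit of 20 kb. The farthest peak within that limit was the one 8628 bp from Hyal1.

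Sema3b, a secreted class 3 semaphorin that signals through neuropilins and plexins, and Hyal1, a lysosomal enzyme that degrades hyaluronan, lay on either side of a single peak. Sema3b was at 0.21, 0.14 and 0.20 FPKM in WT and at 0.84 and 0.74 FPKM in KO. Its lowest KO value was 3.52 times its highest WT value. The means were 0.183 ± 0.0379 (SD, n = 3) and 0.79 ± 0.0707 FPKM (SD, n = 2), with a log2 difference of 1.66 (SE 0.19) that was 2.07 with a pseudocount of 0.01 and 0.60 with 1. Hyal1 was at 3.32, 3.07 and 3.12 FPKM in WT and at 5.93 and 7.00 FPKM in KO. The KO libraries of Hyal1 differed more from each other than those of most of the 8 genes, yet both exceeded every WT library by at least 2.61 FPKM. The means were 3.17 ± 0.132 (SD, n = 3) and 6.465 ± 0.757 FPKM (SD, n = 2), a ratio of 2.04 and a log2 difference of 1.00 (SE 0.09). The annotated span of Hyal1 overlaps those of Nat6 (Naa80 in RefSeq) and Hyal3 on the same strand, so that fragments from the shared stretch may not be separable.

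The shared peak, chr9:107590327-107590649, was 323 bp wide and lay beyond the 3′ end of both genes, 7025 bp from Sema3b and 8628 bp from Hyal1. It was inside Ifrd2, where it covered 241 bp of coding sequence of exons 4 to 5 of NM_025903.2 and the intron between them. No base was soft-masked, and the peak was absent from the hybrid list. It is shown because its copies of TGCCGC, in capitals, start only 7 bp apart on the plus strand, the closest spacing of the set.
Sema3b and Hyal1 peak, chr9:107590338-107590637, plus strand: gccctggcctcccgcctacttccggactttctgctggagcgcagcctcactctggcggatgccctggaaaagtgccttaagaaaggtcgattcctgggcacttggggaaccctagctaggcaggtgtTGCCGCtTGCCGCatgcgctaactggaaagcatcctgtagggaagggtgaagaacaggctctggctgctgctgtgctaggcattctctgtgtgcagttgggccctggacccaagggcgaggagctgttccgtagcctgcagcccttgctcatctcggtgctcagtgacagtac

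Zmat4 encodes a protein with matrin-type zinc fingers. Its values were 0.57, 0.53 and 0.50 FPKM in WT and 1.75 and 1.91 FPKM in KO. The groups did not overlap, and the lowest KO value was 3.07 times the highest WT value. The means were 0.533 ± 0.0351 (SD, n = 3) and 1.83 ± 0.113 FPKM (SD, n = 2), with a log2 difference of 1.61 (SE 0.13) that was 0.88 with a pseudocount of 1. The peak, chr8:23916018-23916216, lay deep in the gene, 268791 bp from the annotated start and in intron 4 of NM_177086.4. At 199 bp it was the narrowest of the set, with no soft-masked base, and it was absent from the hybrid list. The whole interval is shown, with its copies of TGCCGC in capitals, which start 21 bp apart.
Zmat4 peak, chr8:23916018-23916216, plus strand: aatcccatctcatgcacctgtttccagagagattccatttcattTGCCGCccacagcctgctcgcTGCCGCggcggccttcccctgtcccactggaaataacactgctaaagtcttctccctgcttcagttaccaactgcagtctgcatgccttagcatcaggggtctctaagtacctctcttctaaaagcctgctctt

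Agrn encodes agrin, a heparan sulfate proteoglycan of basement membranes that clusters acetylcholine receptors at the neuromuscular junction through LRP4 and MuSK. Its values were 11.88, 10.91 and 11.34 FPKM in WT and 17.86 and 16.43 FPKM in KO. Both KO libraries were higher than WT by several times the spread within the groups. The means were 11.38 ± 0.486 (SD, n = 3) and 17.14 ± 1.01 FPKM (SD, n = 2), a ratio of 1.51 and a log2 difference of 0.59 (SE 0.06). Agrn differed from the other 7 genes in carrying 3 peaks. Of 392 genes with a peak in their span, 11 had as many as 3. All 3 peaks of Agrn were centred on exons, contained coding sequence and were also in the hybrid list. Along the chromosome, the first, chr4:156174158-156175034, was 877 bp wide and covered 540 bp of exons 14 to 17 of NM_021604.3. The second, chr4:156176093-156177490, was 1398 bp wide, which only 10 peaks of the list reached, itself included, and covered 870 bp of exons 8 to 12. The third, chr4:156178555-156179123, was 569 bp wide and covered 332 bp of exons 5 to 7. They held 2, 3 and 0 copies of TGCCGC, and the third was the only peak of the set without a copy. A site of 30 bases is shown for the copy nearest the centre of the second peak, in capitals.
Agrn site, chr4:156176721-156176750, plus strand: tgacgccatcacTGCCGCacacagggccag

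Ankrd13a encodes an ankyrin repeat protein with ubiquitin-interacting motifs that acts in the endocytosis of ubiquitinated receptors. It was the highest of the 8 genes in every library, at 12.63, 12.73 and 12.73 FPKM in WT and 17.93 and 18.74 FPKM in KO. The WT libraries were almost identical. The means were 12.7 ± 0.0577 (SD, n = 3) and 18.34 ± 0.573 FPKM (SD, n = 2), a ratio of 1.44 and a log2 difference of 0.53 (SE 0.04). The peak, chr5:114803259-114803596, lay near the 3′ end of the gene, mainly in intron 13 of NM_026718.2, with 40 bp in coding exon 14. It was 338 bp wide and absent from the hybrid list.

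Oxct1 encodes the mitochondrial enzyme that transfers coenzyme A from succinyl-CoA to acetoacetate, the step by which tissues use ketone bodies. Its values were 11.93, 11.32 and 11.30 FPKM in WT and 15.91 and 15.71 FPKM in KO. It had the smallest ratio of the 8, 1.37, but the groups were still 3.78 FPKM apart. The means were 11.52 ± 0.358 (SD, n = 3) and 15.81 ± 0.141 FPKM (SD, n = 2), with a log2 difference of 0.45 (SE 0.05). The peak, chr15:4079327-4079933, was 607 bp wide, lay in intron 7 of NM_024188.6 and was absent from the hybrid list. The central bases of the Ankrd13a and Oxct1 peaks are shown together because both hold a pair of copies on the minus strand, read as GCGGCA on the plus strand and marked in capitals, 14 bp apart in Ankrd13a and 12 bp apart in Oxct1.
Ankrd13a peak, chr5:114803278-114803577, plus strand: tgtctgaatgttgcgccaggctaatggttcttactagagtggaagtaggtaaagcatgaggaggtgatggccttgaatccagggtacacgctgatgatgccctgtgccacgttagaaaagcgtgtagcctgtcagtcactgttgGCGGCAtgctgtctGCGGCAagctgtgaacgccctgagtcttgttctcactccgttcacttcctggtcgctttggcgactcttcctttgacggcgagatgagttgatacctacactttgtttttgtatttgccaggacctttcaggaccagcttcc
Oxct1 peak, chr15:4079480-4079779, plus strand: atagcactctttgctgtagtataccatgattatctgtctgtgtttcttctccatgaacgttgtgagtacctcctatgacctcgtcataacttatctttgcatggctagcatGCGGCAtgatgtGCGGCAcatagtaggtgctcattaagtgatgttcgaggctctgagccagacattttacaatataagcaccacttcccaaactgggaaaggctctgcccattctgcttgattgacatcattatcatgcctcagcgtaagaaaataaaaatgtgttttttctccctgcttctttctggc

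The order of the levels was much the same with and without ZFP57. In WT it was Ankrd13a, Oxct1, Agrn, Hyal1, Mapk4, Zmat4, Sema3b and Dcdc2a, and the libraries of the neighbours Oxct1 and Agrn overlapped. In KO, Agrn stood above Oxct1 without overlap, and Dcdc2a and Sema3b, the lowest, overlapped. The ratio of the highest to the lowest of the 8 genes narrowed from between 253 and 636 in the WT libraries to 21.3 and 25.3 in the KO libraries. The lowest gene was Dcdc2a in each WT library, at 0.02 to 0.05 FPKM, and Sema3b in both KO libraries. The WT ratios thus rest on 1 gene with few fragments. Their FPKM summed to 39.66 to 41.32 in WT and to 64.23 and 64.43 in KO. The first KO library was the higher of the pair for 5 genes and the second for 3, so that neither library carried all the differences.

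**Figure D2:**
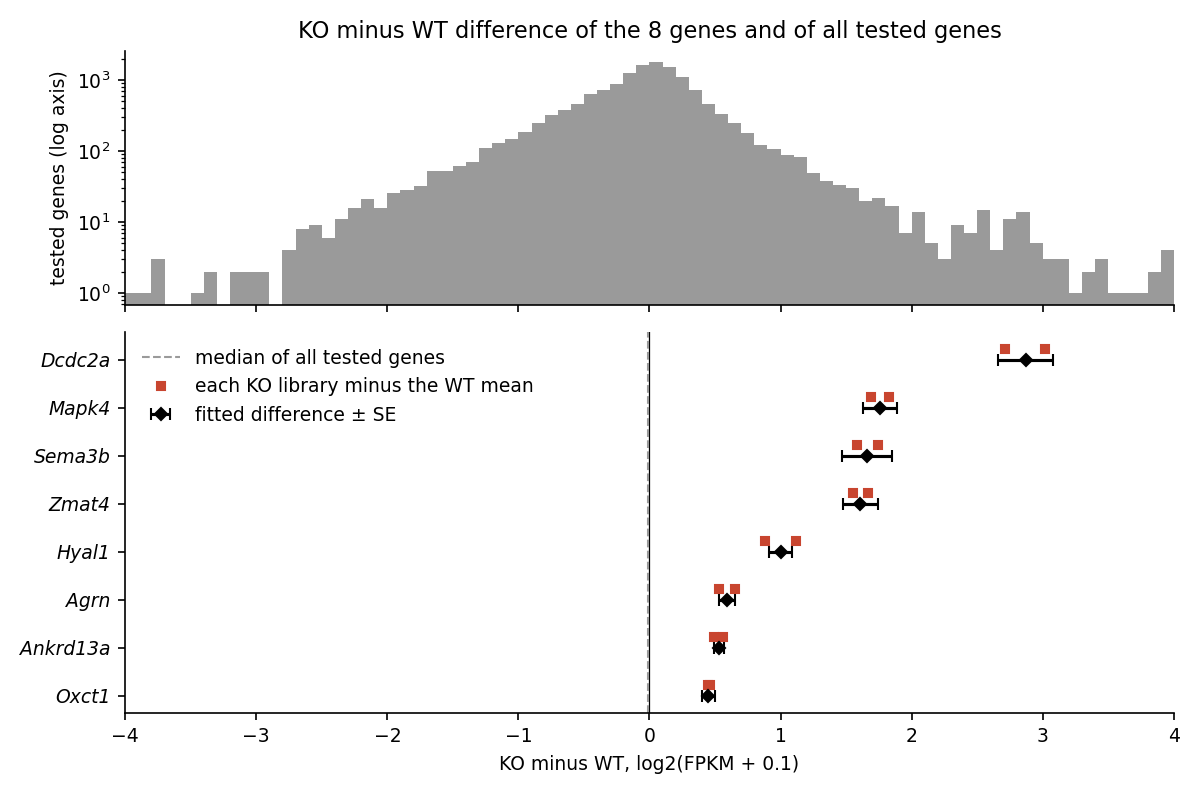
Above, the number of tested genes by KO minus WT difference in log2(FPKM + 0.1), with a logarithmic count axis and values beyond the ends placed in the outermost bins. Below, the fitted difference of each of the 8 genes with its SE (diamonds) and each KO library less the WT mean (squares), which run from 0.45 at Oxct1 to 2.87 at Dcdc2a in the fit, all to the right of the median of all tested genes.

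The genes closest in pattern to the 3 genes with the largest differences were sought by the Euclidean distance of log2(FPKM + 0.1) less the WT mean over the 5 libraries. For Dcdc2a these were the microRNA genes Mir6954 (distance 0.28) and Mir154 (0.35). Mir6954 was listed at 0 in all WT libraries and at 0.64 and 0.60 FPKM in KO, and Mir154 at 0 in WT and at 0.58 and 0.55 FPKM in KO. Since FPKM is relative to length, such values on short microRNA genes stand for few fragments. Their log2 differences, 2.85 and 2.73, were 0.70 and 0.65 with a pseudocount of 1 FPKM. For Mapk4 the closest genes were Zfpm2, a cofactor of GATA factors (0.19), and Fam84b (0.23). For Sema3b they were Prss8, which encodes the protease prostasin (0.12), and Lad1, which encodes the basement membrane protein ladinin (0.22). None of these 6 genes lay within 50 kb of a ZFP57 peak. The nearest, Prss8, was 57723 bp away, and Mir154 was 82036 bp away. Whether any of them depended on ZFP57 binding was not tested.

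The 9 distinct peaks of the 8 genes differed from the list of 1423 in where they lay. Of the 9, 5 were centred in introns and 3 in exons, 1 was intergenic and none was within 1000 bp of a gene start. In the whole list 24.9% were intronic, 4.57% exonic and 68.7% intergenic. Since closeness to a gene was part of the choice, this is a description. Soft-masked sequence covered at least 50% of the width in 2 of the 9 peaks (22.2%) and in 65.6% of all peaks. Loss of H3K9me3 was also part of the choice, and the study reported it for few peaks on transposable elements. This share is therefore a description too. The hybrid list contained 4 of the 9 (44.4%) and 52.2% of all. The median width was 569 bp for the 9 peaks, 343.5 bp for the 6 that are not at Agrn, 291 bp for all peaks and 323 bp for the peaks with soft-masked sequence over less than 50% of their width.

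TGCCGC, searched on both strands, was present in 8 of the 9 peaks (88.9%) and in 92.0% of all peaks. In intervals of equal width 2000 bp towards lower coordinates, whatever the strand of the gene, it was present in 2 of 9 (22.2%) and in 5.55%. These intervals could overlap other peaks. The interval of the Agrn peak chr4:156176093-156177490 covered copies of another Agrn peak, at 156174220 and 156174982. That of chr4:156178555-156179123 lay inside a further Agrn peak and covered its copy at 156176733. The 2 hits were thus in bound sequence, and 22.2% is not a background rate. More than 1 copy was found in 7 of the 9 peaks (77.8%) and in 23.6% of all peaks, or 35.4% of the peaks with soft-masked sequence over less than 50% of their width. Per 100 bp the medians were 0.33 copies for the 9 peaks and 0.38 for all peaks. Of the 17 copies, 7 were followed by A (41.2%), against 68.4% of the 1877 copies in the list and 56.9% of the 802 copies in peaks with soft-masked sequence over less than 50% of their width. The base G followed 5 of the 17 (29.4%), against 15.1% and 16% of those copies. Pairs of copies that start within 25 bp of each other, a limit chosen after the sequences had been seen, occurred in 4 of the 9 peaks and in 80 of all peaks (5.62%). Among the 336 peaks with at least 2 copies, which include 7 of the 9, 23.8% had such a pair. Among the 489 peaks with soft-masked sequence over less than 50% of their width, 12.1% had such a pair. Copies within a peak are not independent of each other. The table of RefSeq promoters (GRCm38) held windows for 5 of the 8 genes, each of 300 bp around a gene start, and TGCCGC occurred in a window of 2 of them, Agrn and Ankrd13a, and of 13.1% of the 27025 genes of that table.

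**Figure D3:**
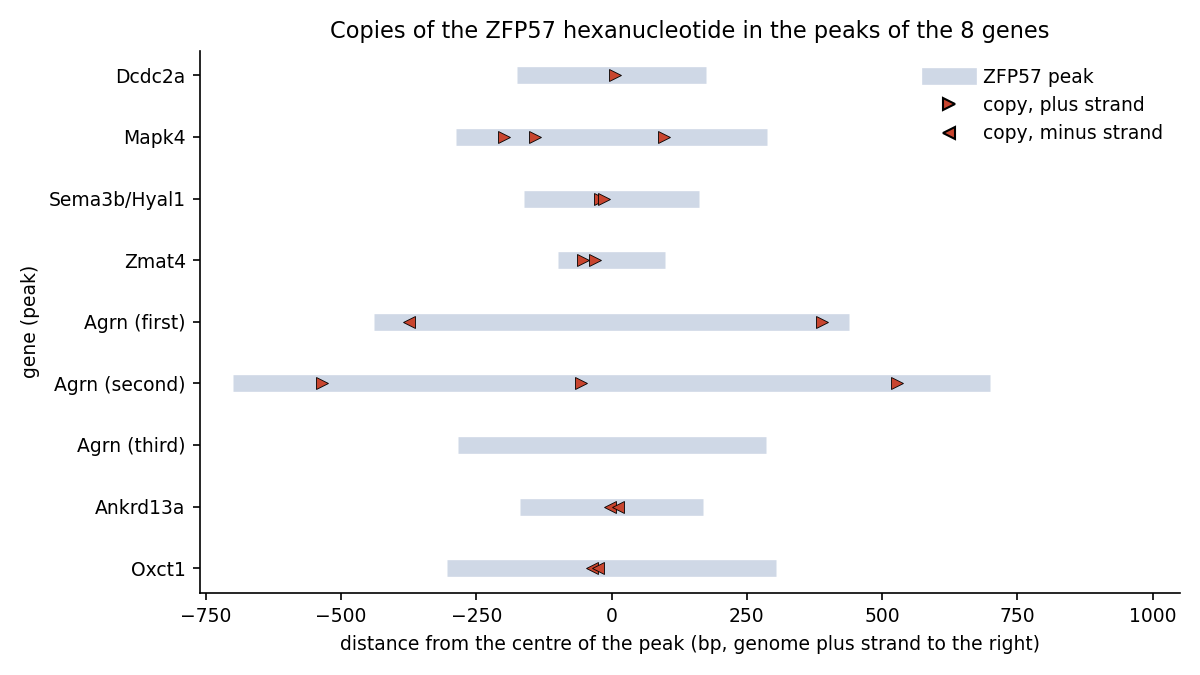
The 9 ZFP57 peaks as bars to scale, aligned at their centres (x axis in bp), with arrowheads for copies of the hexanucleotide on the plus and minus strand. Close pairs near the centre are seen at Sema3b/Hyal1, Zmat4, Ankrd13a and Oxct1, while the third Agrn peak has no copy.

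Whether genes beside the same peaks also differed was read from the fit over all tested genes. Of 41 other genes whose span lay within 100 kb of the peaks, 29 were tested, 11 rose and 2 fell (44.8% called, against 41.1% of all tested genes), with a median log2 difference of 0.14. By direction, 37.9% of the neighbours rose against 18.8% of all tested genes, and 6.90% fell against 22.3%. Of the 11 that rose, 8 lay around the peak shared by Sema3b and Hyal1. Within 20 kb, 3 of 6 rose and 1 fell. Without the second KO library 8 neighbours were called in place of 13.

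The peak shared by Sema3b and Hyal1 lay in the densest neighbourhood, with 14 tested neighbours, of which 8 rose and 1 fell. Nat6, which encodes an actin N-acetyltransferase and overlaps Hyal1, was at 5.50, 5.60 and 5.19 FPKM in WT and 9.91 and 10.41 FPKM in KO, a log2 difference of 0.89 (SE 0.06, limma adjusted p = 0.00041). Ifrd2, the gene that contains the peak, was at 4.38, 5.46 and 4.64 FPKM in WT and 8.07 and 8.23 FPKM in KO (0.75, SE 0.10, limma adjusted p = 0.0023). Hyal2, the hyaluronidase gene next to Hyal1, rose by 0.46 (SE 0.08, limma adjusted p = 0.0047). Rassf1, a tumour suppressor gene, was higher by 0.71 (SE 0.14, limma adjusted p = 0.0099), a call lost without the second KO library (0.59, adjusted p = 0.062). The amino acid transporter gene Slc38a3 went the other way, from 0.39, 0.29 and 0.39 FPKM to 0.13 and 0.17 FPKM. Its difference was -0.24 with a pseudocount of 1 FPKM and -0.87 with 0.1 FPKM (SE 0.20, limma adjusted p = 0.017). That call was lost without the first KO library (-0.75, adjusted p = 0.072), the first WT library (-0.81, adjusted p = 0.058) or the third (-0.81, adjusted p = 0.059). Hyal3 was at 0.11, 0.24 and 0.27 FPKM in WT and 0.30 and 0.17 FPKM in KO and was not called. The direction of its difference, 0.14, turned when the first KO library or the first WT library was left out (-0.14 and -0.11).

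The other neighbourhoods were sparser. None of the 5 tested genes around Agrn was called. Beside Ankrd13a, 1 of 6 tested genes rose and 1 fell. Git2, 28671 bp from the peak, was higher by 0.25 (SE 0.06, limma adjusted p = 0.02), a call lost without either KO library (adjusted p = 0.071 and 0.076), WT library 1 (0.056) or WT library 3 (0.061). The gene 2610524H06Rik, 18341 bp from the peak, fell by 0.78 (SE 0.07, limma adjusted p = 0.00079), from 11.02, 11.44 and 12.77 to 6.90 and 6.65 FPKM. 1500011B03Rik, 4600 bp from that peak, had a difference of -0.21 (SE 0.10, limma adjusted p = 0.15), which was -0.33 without the first KO library and -0.09 without the second. Beside Oxct1, 1 of 2 tested genes was called, AW549877, which rose by 0.36 (SE 0.06, limma adjusted p = 0.0065). Beside Dcdc2a, 1 of 2 tested genes was called. The called gene, Mrs2, which encodes a mitochondrial magnesium channel, was at 1.69, 1.93 and 2.60 FPKM in WT and 4.20 and 4.39 FPKM in KO (1.04, SE 0.17, limma adjusted p = 0.0053). Both genes listed within 100 kb of the Mapk4 peak were too low to be tested, and no other gene of the table was placed within 100 kb of the Zmat4 peak.

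Relatives and partners of the 8 genes were read from the same fit. Of 87 listed genes in 8 groups, 57 were tested, 15 rose and 19 fell (59.6% called, against 41.1% of all tested genes), and the median log2 difference was -0.08. Of the 57, 6 were on chromosome 11 and 4 on chromosome 6. With the median of each chromosome subtracted, 13 relatives rose and 13 fell (45.6% called, against 36.2% of all tested genes). The values below are without this subtraction unless stated.

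Among the doublecortin genes, 3 of 10 were tested, 1 rose and 1 fell. Dclk3 rose by 1.19 (SE 0.17, limma adjusted p = 0.0033), from 0.41, 0.44 and 0.36 to 0.91 and 1.20 FPKM. The rise was 0.55 with a pseudocount of 1 FPKM. Dclk2 was at 8.88, 9.32 and 9.68 FPKM in WT and 6.66 and 3.81 FPKM in KO (-0.87, SE 0.21, limma adjusted p = 0.02), and its KO libraries stood far apart. Its call was lost without WT library 1, 2 or 3 (adjusted p = 0.052, 0.067 and 0.066) and under eBayes without trend (0.051) or robust eBayes (0.057), and its difference was between -1.26 and -0.47 when a KO library was left out. Of the 9 atypical MAP kinases and their partners, none rose and 3 fell, or 1 with chromosome medians subtracted. Pak3, a p21-activated kinase gene, was at 0.27, 0.25 and 0.27 FPKM in WT and 0.16 and 0.08 FPKM in KO. Its difference was -0.17 with a pseudocount of 1 FPKM and -0.75 with 0.1 FPKM (SE 0.23, limma adjusted p = 0.04). The call was lost without the second KO library (-0.48, adjusted p = 0.14) and without any of the WT libraries (adjusted p between 0.079 and 0.10), and with quantile normalization (-0.48, adjusted p = 0.13).

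Of 8 tested semaphorin genes and receptors, 3 rose and 1 fell, or 2 and 1 with chromosome medians subtracted. The semaphorin receptor gene Nrp2 was at 0.20, 0.32 and 0.19 FPKM in WT and 1.09 and 0.97 FPKM in KO, a log2 difference of 1.77 (SE 0.21, limma adjusted p = 0.0018) beside 1.66 for Sema3b. Its difference was 0.72 with a pseudocount of 1 FPKM and 2.11 with 0.01 FPKM, beside 0.60 and 2.07 for Sema3b. The plexin gene Plxna2 rose by 0.94 (SE 0.11, limma adjusted p = 0.0015). Plxnd1 fell by 0.78 (SE 0.21, limma adjusted p = 0.03), a call lost without the first KO library (-0.65, adjusted p = 0.095), the first WT library (-0.79, adjusted p = 0.073) or the third (-0.72, adjusted p = 0.084), and with quantile normalization (-0.46, adjusted p = 0.12). With a pseudocount of 1 FPKM it was -0.15. The other class 3 semaphorins were not called or were too low to be tested. Of 3 tested ZMAT genes, 1 rose and 1 fell. Zmat5, which encodes a component of the minor spliceosome, was at 10.95, 12.09 and 11.38 FPKM in WT and 6.47 and 5.33 FPKM in KO (-0.95, SE 0.09, limma adjusted p = 0.00087). It lies on chromosome 11, and with the median of that chromosome subtracted its difference was -0.48 (adjusted p = 0.0095).

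Of 8 tested genes of hyaluronan turnover, 3 rose and 2 fell, or 3 and 0 with chromosome medians subtracted. The 3 include Hyal2, which is also a neighbour described above. The 2 that fell had differences of -0.43 and -0.41. Cemip, which encodes a hyaluronan-binding protein needed for its breakdown, rose by 2.09 (SE 0.29, limma adjusted p = 0.0028), from 0.26, 0.21 and 0.11 to 0.91 and 1.36 FPKM. This rise was 0.83 with a pseudocount of 1 FPKM and 2.54 with 0.01 FPKM. Hexa, which encodes a subunit of the lysosomal enzyme hexosaminidase, was at 14.54, 14.80 and 14.63 FPKM in WT and 24.46 and 28.46 FPKM in KO (0.84, SE 0.07, limma adjusted p = 0.00057). Of 9 tested agrin receptors and partners, 4 rose and 3 fell, or 4 and 2 with chromosome medians subtracted. Hspg2, the gene of perlecan, another heparan sulfate proteoglycan of basement membranes, was at 6.44, 5.49 and 5.01 FPKM in WT and 12.26 and 13.50 FPKM in KO (1.18, SE 0.11, limma adjusted p = 0.00079). Rapsn, whose product anchors acetylcholine receptors, rose by 0.61 (SE 0.13, limma adjusted p = 0.013), and the laminin gene Lamb2 by 0.53 (SE 0.11, limma adjusted p = 0.0099). Both calls were lost without the second KO library, with 0.54 and an adjusted p of 0.079 for Rapsn and 0.52 and an adjusted p of 0.058 for Lamb2. The 3 that fell had smaller differences. Nid1, which encodes the basement membrane protein nidogen-1, fell by 0.34 (SE 0.05, limma adjusted p = 0.0024). The dystroglycan gene Dag1 fell by 0.23 (SE 0.05, limma adjusted p = 0.017), a call lost without either KO library (adjusted p = 0.078 and 0.057), WT library 1 (0.054) or WT library 3 (0.058). The acetylcholine receptor gene Chrnb1, on chromosome 11, had -0.33 (SE 0.11, limma adjusted p = 0.049). That call was lost without any library in turn (adjusted p between 0.06 and 0.18), and the value was 0.14 (adjusted p = 0.33) with chromosome medians subtracted. Nid2, which encodes nidogen-2, had a difference of 0.03 (SE 0.06, limma adjusted p = 0.72).

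All 7 genes of the ANKRD13 group were tested, and none rose while 4 fell. With chromosome medians subtracted 1 rose and 3 fell, since Hgs, which encodes an endosomal sorting protein and lies on chromosome 11, went from -0.22 (limma adjusted p = 0.008) to 0.25 (adjusted p = 0.0061). Ankrd13b was at 0.93, 0.78 and 0.93 FPKM in WT and 0.41 FPKM in both KO libraries (-0.94, SE 0.15, limma adjusted p = 0.0041). It also lies on chromosome 11, and its difference was -0.47 (adjusted p = 0.044) with the median of that chromosome subtracted. Ankrd13d was at 0.71, 0.44 and 0.83 FPKM in WT and 0.18 and 0.30 FPKM in KO. Its difference was -0.42 with a pseudocount of 1 FPKM and -1.15 with 0.1 FPKM (SE 0.29, limma adjusted p = 0.022). Its call was lost without the first KO library (-0.89, adjusted p = 0.12), the first WT library (-1.08, adjusted p = 0.071) or the third (-0.98, adjusted p = 0.068). Eps15, an endocytic adaptor gene, fell by 0.51 (SE 0.06, limma adjusted p = 0.0017), and Ankrd13c had a difference of -0.05 (SE 0.04, limma adjusted p = 0.34), which was -0.08 without the first KO library and -0.02 without the second. Of 10 tested genes of ketone body metabolism, 3 rose and 4 fell, or 1 and 4 with chromosome medians subtracted. Aacs, whose cytosolic product activates acetoacetate for lipid synthesis, rose by 0.93 (SE 0.09, limma adjusted p = 0.0008), from 3.43, 3.97 and 3.85 to 6.88 and 7.60 FPKM. Acat1, which encodes the thiolase that follows Oxct1 in ketone body use, fell by 0.85 (SE 0.14, limma adjusted p = 0.005), and Suclg2, a subunit of succinyl-CoA ligase, fell by 0.68 (SE 0.14, limma adjusted p = 0.0095), or by 0.45 without the first KO library, with the call kept.

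**Figure D4:**
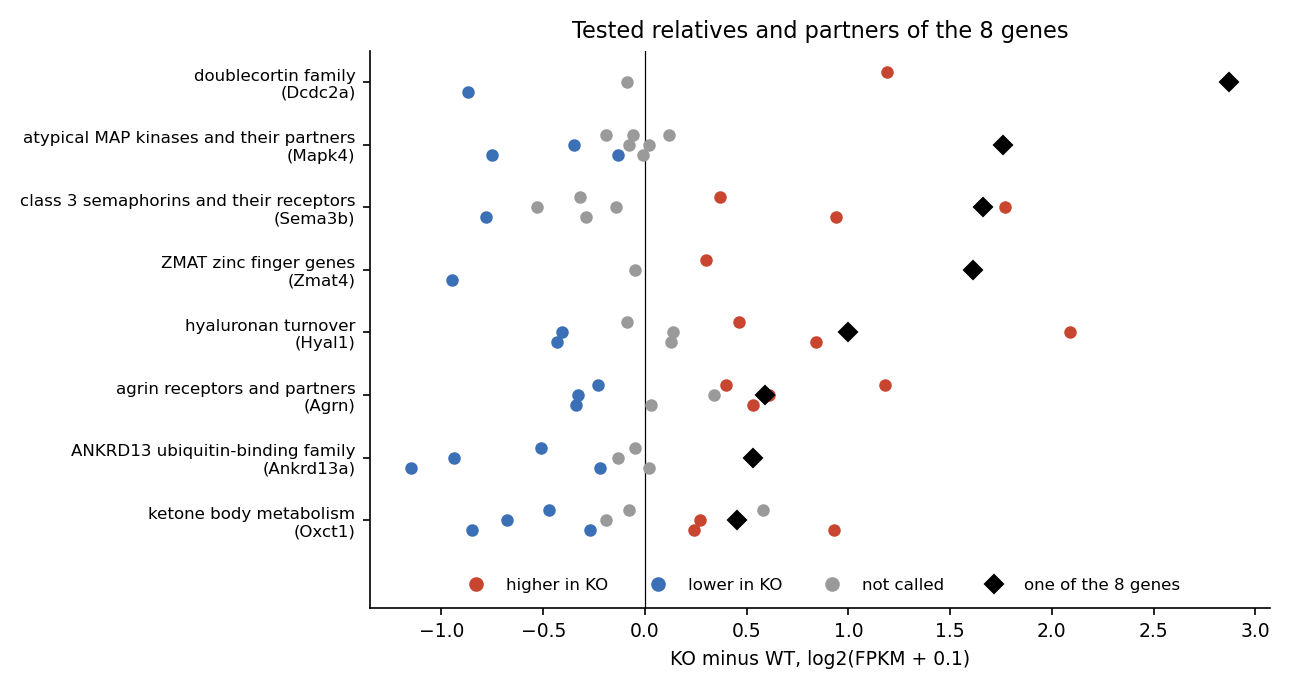
KO minus WT difference in log2(FPKM + 0.1) of the 57 tested relatives and partners in 8 groups, with filled circles by call and a diamond for the gene each group belongs to. Without subtraction of chromosome medians, 15 calls lie to the right of 0 and 19 to the left, and the ANKRD13 and atypical MAP kinase groups have none on the right. With it, Hgs of the ANKRD13 group is called on the right.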

How the data were processed

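The RNA-seq and ZFP57 ChIP-seq libraries were sequenced with paired reads of 150 and 100 bp. The authors deposited expression as FPKM rounded to 2 decimals, and ZFP57 peaks as intervals in mm10 without a score. The submitters' processing notes name STAR 2.5.2, BWA 0.6.2 and MACS2 2.1.0, while the annotation, the counting and the origin of the hybrid list are not given in the sources used here. Genes whose mean over the 5 libraries reached 0.1 FPKM were fitted on log2(FPKM + 0.1) with limma 3.58.1 (eBayes with trend, R 4.3.3) and no covariate, and called at an adjusted p under 0.05 (Benjamini-Hochberg over all 14612 genes). The fit was tested on simulated data. The p-values measure the spread between libraries, which the labels number but do not tie to separate derivations for RNA. Of the 24409 genes, 24243 were placed on RefSeq GRCm38 by symbol or synonym, and peaks within 20 kb of a span were assigned. Depth was estimated from single-exon genes, of which 75.9 to 81.3% of low values came within 0.05 of a whole number of fragments. It gives no interval for a single FPKM value.

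The 8 genes, the lists of neighbours and relatives and the rule for named genes were set with earlier results of these data known. Named were neighbours within 20 kb, called neighbours within 100 kb and called relatives with a log2 difference of at least 0.5 in size, at most 4 uncalled relatives with the highest mean (some are not reported here), and the 2 genes closest in pattern to each of the 3 genes with the largest difference. Names of retrotransposons at the Mapk4 peaks come from the study's list of bound elements. Eomes, Sox7, T, Tubb3, Sox1, Neurog1, Dcn, Hgs, Git2, AW549877, Nid1, Dag1 and Chrnb1 were chosen after their values were seen. Alternatives to the pseudocount, the filter, the scaling, the variance model, the windows and the libraries used were run, and the closing section gives their counts of calls.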

Additional observations from a re-analysis of the deposited data

How the results depend on the processing

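The direction of the 8 genes was fixed by their choice, and since their groups do not overlap, most of the 15 alternative fits could not turn it. Of their 118 log2 differences under these fits, 100 moved by less than 1 SD of the replicates and 18 by more. Pseudocounts of 0.01 and 1 FPKM gave 5959 and 5944 called genes, no filter on low values 5752 and the filter at a mean of 1 FPKM 4890. Under the 2 pseudocounts the log2 differences ran from 0.86 to 4.40 for Dcdc2a and from 0.60 to 2.07 for Sema3b. With 1 FPKM those of other named genes under 1 FPKM in WT shrank too, such as to 0.57 for Plxna2, 0.41 for Rassf1 and -0.41 for Ankrd13b. The filter at a mean of 1 FPKM left 6 of the 8 genes.

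With the replicate number as a block, over the 4 libraries whose numbers are shared, 2980 of the tested genes were called in place of 6002, 6 neighbours in place of 13 and 18 relatives in place of 34. The correlation of WT 1 minus WT 2 with KO 1 minus KO 2 over genes was -0.0604. It shows no sign of pairing by number, but 1 such correlation cannot exclude it. The block also uses fewer libraries.

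Leaving out each library in turn gave 4095 to 4775 called genes, 8 to 12 neighbours and 24 to 28 relatives. Subtracting chromosome medians left 5288 called genes, 13 neighbours and 26 relatives. Median scaling, quantile normalization, eBayes without trend and robust eBayes gave 6091, 5798, 5331 and 6058 called genes, with 12 to 13 neighbours and 30 to 32 relatives. A window of 20 kb left 4 called neighbours and one of 200 kb gave 17. Peaks near the 8 genes numbered 7 by overlap with the span, 8 within 5 kb and 10 within 50 kb. Restricted to the hybrid list, 4 peaks near the 8 genes remained, 3 of them with TGCCGC.

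Of 616 values of 42 other named genes, 558 kept direction and side of the threshold, 53 lost the call and 5 changed direction. With chromosome medians subtracted, Hgs went from a called -0.22 to a called 0.25 and Chrnb1 from a called -0.33 to 0.14, which was not called. The other 3 were of genes that were not called. Hyal3 had -0.14 without the first KO library and -0.11 without the first WT library, and Nid2 had -0.05 without the first KO library. Over the libraries left out in turn, Hyal3 ranged from -0.14 to 0.43 and Nid2 from -0.05 to 0.11. The causes were not tested. With 2 KO libraries and FPKM alone, the depth behind low genes is an estimate.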
